A study of Mus musculus with 4 samples.

Results

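Genomic imprinting is expression of a gene from the copy inherited from 1 parent, and it is set up by imprinted control regions. In such a region the cytosines of CG dinucleotides are methylated on the chromosome from one parent and unmethylated on the other, a difference that is laid down in the germ line and kept in all tissues. Mouse chromosome 7 carries several of them, and 5 were examined here: those of Peg3, Snrpn, Inpp5f, H19 and Kcnq1ot1. Members were found by position alone, as every non-control probe of a mouse CpG island array whose mm9 position lay inside 1 of 5 windows set around these regions. Of 88737 probes on the array, of which 6253 were on chromosome 7, 23 were members. They fell into 3 of the 5 windows: 9 probes in the Peg3 window, 6 in the Inpp5f window and 8 in the Kcnq1ot1 window. The Snrpn and H19 windows held 0 probes, so no level can be given for either.

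The arrays were hybridised with genomic DNA of whole brains from C57BL/6J offspring at 1 day of age. Dams had received titanium dioxide nanoparticles intratracheally at 100 ug per mouse (TiO2-H) or vehicle (Sham). The sample names place the treatment on gestational day 14 and the protocol on gestational day 10.5. Each of the 4 groups, male and female of either exposure, was 1 pool of DNA, from 2 offspring of each of 5 Sham dams or of each of 6 TiO2-H dams, on 1 array. On every array Cy5 carried DNA pulled down by an antibody that binds 5-methylcytosine, a step called methylated DNA immunoprecipitation (MeDIP), and Cy3 carried the untreated input. Where 4 values are given in array order, the first is Sham male, the next Sham female, then TiO2-H male and last TiO2-H female. With 1 array per group, a difference between 2 arrays has no replicate check and no error of its own. Whole brain is a mixture of cell types, so a level is an average over all of them and over both parental chromosomes.

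Each array was checked against its labels before the windows were read. The median Cy3 input of X-linked probes minus that of autosomal probes (log2) was -0.75 on Sham male and 0.03 on Sham female. It was 0.03 where the label is TiO2-H male and -0.74 where it is TiO2-H female, so both TiO2-H arrays went against their labelled sex. Labelled sex was also the slide, with both male-labelled arrays on slide 1 and both female-labelled arrays on slide 2, and exposure was also the position on the slide. Exposure and position, and labelled sex and slide, cannot be told apart. Each exposure comparison below is therefore given within the labelled sex and also with the TiO2-H arrays exchanged. The share of autosomal probes with Cy5 well above background, as called by the scanner software, was 51.2% on Sham male, 58.8% on Sham female, 24.6% on TiO2-H male and 32.9% on TiO2-H female. Among the 23 member probes these shares were 78.3%, 78.3%, 56.5% and 73.9% in array order, that is 18, 18, 13 and 17 probes. All 23 had Cy3 well above background on all 4 arrays.

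The roles of the 5 regions are known from work on their genes. Peg3 codes for a zinc finger protein made from the paternal copy, and its control region lies over the start of the gene and is methylated on the maternal copy. Snrpn codes for a splicing protein of neurons, is read with Snurf from a paternal transcript, and has its maternally methylated control region at that start. Inpp5f codes for a phosphoinositide phosphatase, and the maternally methylated region lies inside the gene at the start of a shorter paternal transcript. Kcnq1ot1 is a long non-coding RNA whose start lies inside Kcnq1, and the paternal RNA silences neighbouring genes such as Cdkn1c. H19 is a maternal non-coding RNA, and its control region differs from the others in being methylated on the paternal copy, where it allows Igf2 to be expressed.

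The starts of 3 of the transcripts are shown because they hold the CG dinucleotides that the antibody can report on in the maternally methylated regions. The sequences are RefSeq promoter windows on GRCm38.p6, 250 bases before to 50 after the transcript start, in transcript direction, with every CG in capitals. RefSeq entries were matched by symbol for 4 of the 5 members; H19 is named only. The arrays use mm9 and these windows GRCm38.p6, so they were not aligned with the probes.
Peg3 (chr7:6730370-6730669, minus strand): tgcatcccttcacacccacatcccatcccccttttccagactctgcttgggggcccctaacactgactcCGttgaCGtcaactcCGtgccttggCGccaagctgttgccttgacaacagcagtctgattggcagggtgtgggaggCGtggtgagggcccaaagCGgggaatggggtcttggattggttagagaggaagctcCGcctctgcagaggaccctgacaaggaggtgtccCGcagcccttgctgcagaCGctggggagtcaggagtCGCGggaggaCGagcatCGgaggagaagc
Snrpn, the start shared with Snurf (chr7:60005150-60005449, minus strand): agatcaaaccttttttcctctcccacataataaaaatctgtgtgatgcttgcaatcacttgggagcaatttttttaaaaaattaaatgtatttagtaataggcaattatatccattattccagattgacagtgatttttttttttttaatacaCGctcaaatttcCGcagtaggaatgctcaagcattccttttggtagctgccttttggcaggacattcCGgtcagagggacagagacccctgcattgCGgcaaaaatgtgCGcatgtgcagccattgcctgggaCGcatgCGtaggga
Kcnq1ot1 (chr7:143296498-143296797, minus strand): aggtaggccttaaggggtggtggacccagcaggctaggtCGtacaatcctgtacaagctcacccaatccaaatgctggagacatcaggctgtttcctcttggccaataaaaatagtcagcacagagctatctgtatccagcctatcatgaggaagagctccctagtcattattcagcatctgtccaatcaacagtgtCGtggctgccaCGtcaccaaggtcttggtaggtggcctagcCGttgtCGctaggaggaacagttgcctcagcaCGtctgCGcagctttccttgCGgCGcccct

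The Peg3 start held 13 CG dinucleotides in 300 bases, the Snrpn start 7 and the Kcnq1ot1 start 9, against a median of 7 over 32851 promoter windows of the same length. Bases G and C made up 61.3% of the Peg3 window, 53.3% of the Kcnq1ot1 window and 40.3% of the Snrpn window. The ratio of observed CG to the number expected from the C and G content was 0.46 for Peg3, 0.57 for Snrpn and 0.42 for Kcnq1ot1. The hexamer TGCCGC, which the imprint-keeping zinc finger protein ZFP57 binds when methylated, was searched on both strands, where its other strand reads GCGGCA. It occurred once in the Snrpn window and not in the Peg3 or Kcnq1ot1 window, and 11.6% of all promoter windows hold it. A match is a match of letters only. The RefSeq entry of Inpp5f covers the start of the long transcript and not that of the shorter imprinted one, so it is not shown.

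In each of the 3 windows the probes formed 1 continuous run with no other probe in it. The 9 Peg3 probes spanned chr7:6682111-6683212 (1102 bp), the 6 Inpp5f probes chr7:135831552-135832148 (597 bp) and the 8 Kcnq1ot1 probes chr7:150481208-150482535 (1328 bp), all on mm9. The probes were 45 to 58 bases long, and neighbouring probes read overlapping populations of sheared DNA, so they are not independent measurements. For the Snrpn window the nearest probe lay 660.93 kb away, and for the H19 window 40.72 kb away. Within 500 kb of the H19 window there were 77 probes, and within 500 kb of the Snrpn window there were 0.

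The level of a probe is its log2 ratio of Cy5 to Cy3, both as processed by the scanner software, minus the autosomal median of its array, so that 0 is the middle of the array and not the absence of methylation. All 3 windows with probes lay above the middle on all 4 arrays. Among 12662 autosomal regions, defined below, 29.1% lay above the middle region on all 4 arrays. Of the 23 member probes, 20 were above the autosomal median on Sham male, 22 on Sham female, 22 on TiO2-H male and 21 on TiO2-H female, and 19 were above it on all 4. The share of all autosomal probes above it on all 4 was not computed. The median member level was 1.05, 0.95, 0.96 and 1.35 in array order. On 13 probes Cy5 was well above background on all 4 arrays, on 5 it was so on 1 to 3 arrays, and on 5 it was so on none.

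The Inpp5f window had the highest level on 3 of the 4 arrays. Its median over 6 probes was 1.69 on Sham male, 1.15 on Sham female, 0.89 on TiO2-H male and 1.58 on TiO2-H female. The 2 Sham values and the 2 TiO2-H values overlapped. The probe with the highest mean, chr7:135831942-135831986, had levels of 2.24, 1.96, 2.12 and 2.94 in array order. The probe with the lowest mean, chr7:135832091-135832148, had levels of -0.53, 0.25, 0.46 and -0.40, and its Cy5 was not well above background on any array. The other 4 probes lay between 0.52 and 2.38 on every array. Both of these extremes belonged to 1 probe, chr7:135831748-135831792, at 2.38 on Sham male, 1.40 on Sham female, 0.52 on TiO2-H male and 1.35 on TiO2-H female, with Cy5 not well above background on TiO2-H male.

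By mean level over the 4 arrays, the Peg3 window had 2 peaks with a trough between them. Its median over 9 probes was 0.85 on Sham male, 0.87 on Sham female, 0.96 on TiO2-H male and 1.14 on TiO2-H female. In the upper part of the run by position, chr7:6682979-6683023 had the highest mean, with levels of 3.101, 2.05, 1.87 and 2.71 in array order. Its neighbour chr7:6683071-6683115 was high on every array as well, at 1.65, 1.33, 1.77 and 1.92. In the lower part, chr7:6682310-6682354 spread most over the arrays, with 4.15 on Sham male, 0.95 on Sham female, 0.94 on TiO2-H male and 2.26 on TiO2-H female. Next to it, chr7:6682413-6682457 read 2.69 on Sham male and 0.87, 0.96 and 0.76 on the other three. Sham male was thus far above the other arrays at this pair of probes. The background-subtracted Cy5 signal at the first of them was 92.1 on Sham male and 11.2, 3.78 and 17.5 on the other three, in scanner units.

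Most of the trough of the Peg3 window was dim, as was the outer edge of the window. The probe with the lowest mean, chr7:6682489-6682542, read 0.16, 0.22, 0.25 and 0.36 in array order. Its Cy5 was not well above background on any array, as was also the case for chr7:6682111-6682162 and chr7:6682893-6682938. Levels of such probes are set by signal near the background. Also in the trough, chr7:6682819-6682863 read 0.85, 0.86, 0.96 and 1.14, with Cy5 well above background on all arrays but TiO2-H male. The lower peak read close to this on Sham female (0.95 and 0.87) and TiO2-H male (0.94 and 0.96). On TiO2-H female 1 probe of that peak was below it (0.76) and 1 above it (2.26). Away from Sham male, the trough beside the lower peak thus rested largely on dim probes. The Peg3 window also had the weakest input of the 3: its median Cy3 lay at percentile 17.1 to 30.5 of the autosomal regions, against 62.9 to 67.2 for Inpp5f and 72.6 to 81.6 for Kcnq1ot1.

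In the Kcnq1ot1 window the highest probe lay below the highest of Peg3 and of Inpp5f on every array. The window median over 8 probes was 0.98 on Sham male, 0.90 on Sham female, 0.81 on TiO2-H male and 0.88 on TiO2-H female. The highest mean belonged to the probe at one end, chr7:150481208-150481262, with 1.05, 1.58, 1.70 and 2.04 in array order. The lowest belonged to the probe at the other end, chr7:150482491-150482535, with -0.13, -0.53, 0.06 and 0.72, and its Cy5 was dim on every array. The probe beside it, chr7:150482316-150482360, had Cy5 well above background on all 4 arrays and yet read only -0.07, 0.79, -0.47 and 0.35. The probe chr7:150481545-150481589, at 0.04, 0.52, 1.34 and 0.83, carried a scanner flag on its local background on 3 arrays and was kept. A probe's level also depends on its own hybridisation and on the number of CG dinucleotides in the captured fragments, so a difference between 2 probes is not a difference in methylation alone.

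**Figure D1:**
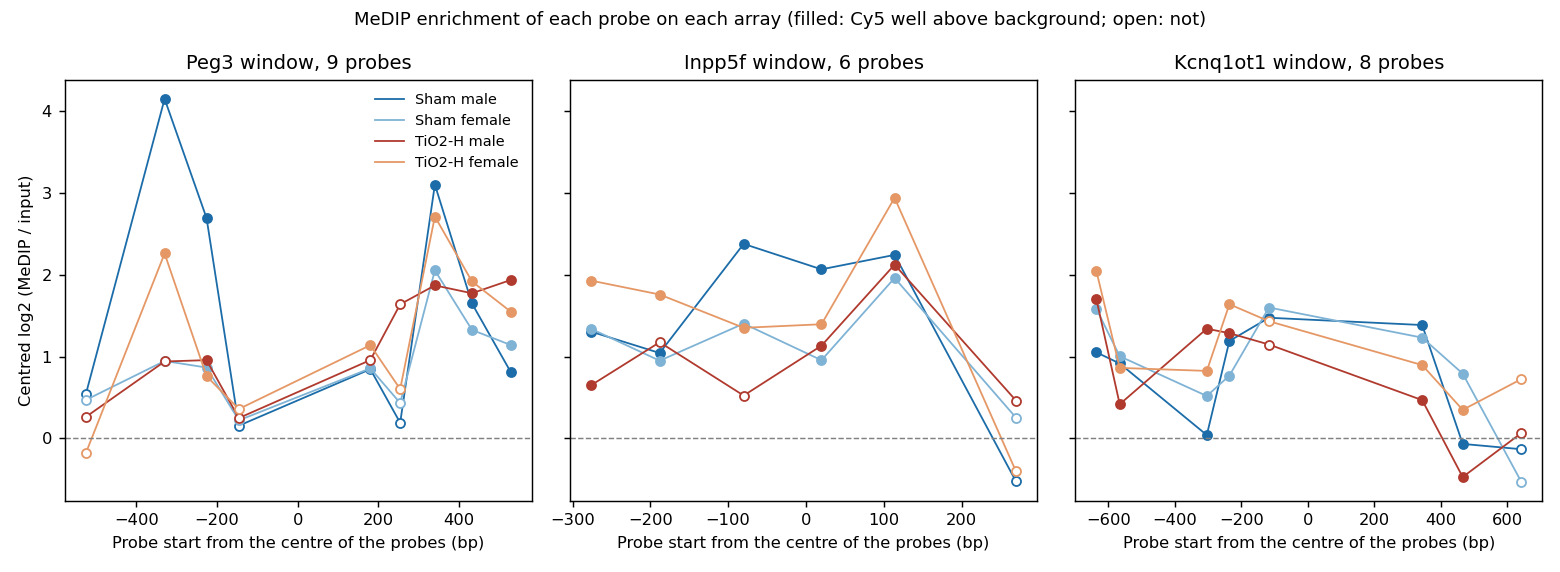
Centred log2 ratio of MeDIP over input (vertical axis) for each member probe, for the Peg3, Inpp5f and Kcnq1ot1 windows, with 1 line per array. The horizontal axis gives the middle of the probe from the centre of its run (bp), although its label reads probe start. Filled points have Cy5 well above background and open points do not; the dashed line at 0 is the autosomal median, and Sham male stands at 4.15 at the second Peg3 probe, where the next highest array reads 2.26.

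The levels of the member probes correlated between arrays to differing degrees. Over the 23 probes Pearson's r between 2 arrays ran from 0.37 (Sham male and TiO2-H male) to 0.76 (Sham female and TiO2-H female), where over all autosomal probes the 6 pairs ran from 0.68 to 0.91. These are descriptions across probes that share a design, a base composition and sheared fragments.

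To place the windows, autosomal probes were joined into regions wherever neighbours lay within 1000 bp, and the median level of each window was ranked among the 12676 to 12974 regions with at least 3 usable probes on that array. The Inpp5f window stood at percentile 96.1 on Sham male, 93.1 on Sham female, 89.5 on TiO2-H male and 94.4 on TiO2-H female. The Peg3 window stood at 83.7, 90.1, 90.6 and 88.4, and the Kcnq1ot1 window at 86.3, 90.5, 87.8 and 84.0. Above percentile 75 on all 4 arrays were 3 of the 3 windows, where 13.6% of 12662 regions were. Above percentile 90 on all 4 arrays were 0 of the 3, where 4.97% of regions were. The missing arrays were TiO2-H male for Inpp5f, Sham male and TiO2-H female for Peg3, and all but Sham female for Kcnq1ot1. No test was made of these ranks.

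The high ranks rested in part on how dim probes were treated. Ranking over probes with Cy5 well above background alone, in windows and regions alike, put Peg3 at percentile 66.2 to 93.4 over the 4 arrays, Inpp5f at 53.1 to 92.0 and Kcnq1ot1 at 24.1 to 82.7. With normexp background correction the Kcnq1ot1 window ran from 26.6 to 93.9 and the Inpp5f window from 63.9 to 95.1, with TiO2-H male the lowest for both. With loess within arrays the Kcnq1ot1 window ran from 66.2 to 81.3. On background-subtracted Cy5 alone, without the input, Inpp5f stood at 92.2 to 96.7, Kcnq1ot1 at 89.4 to 93.3 and Peg3 at 67.02 to 83.5.

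Beside other genes of the same clusters, the 3 windows were among the higher. Cdkn1c, an inhibitor of cyclin-dependent kinases expressed from the maternal copy near Kcnq1ot1, stood at percentile 92.8 on Sham male, 91.8 on Sham female, 96.8 on TiO2-H male and 96.0 on TiO2-H female. Ndn, a paternal growth suppressor gene of the Snrpn cluster, stood at 91.8, 92.4, 95.0 and 84.7, though its input lay at percentile 3.21 to 7.60 and only 1 of its 6 probes had Cy5 well above background on either TiO2-H array. Zim1, a maternal zinc finger gene beside Peg3, stood at 85.2, 76.1, 60.9 and 84.1. Igf2, the growth factor gene controlled from H19, stood at 45.7, 40.7, 59.7 and 45.7. Ascl2, a transcription factor gene of the placenta, stood at 32.6, 31.5, 46.2 and 44.4. Tssc4, a gene near Ascl2, stood lowest at 7.53, 15.8, 4.25 and 15.8. Percentile 75 was passed on all 4 arrays by Ndn and Cdkn1c, 2 of these 6 genes, and by 3 of the 3 control regions.

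Imprinted windows on other chromosomes were placed in the same way. Of 10 such windows, 9 lay above the middle region on all 4 arrays, where 29.1% of regions did. Above percentile 75 lay 6, where 13.6% of regions did, and above percentile 90 lay 1, where 4.97% did. The last was Mest, a paternally expressed hydrolase-like gene, at percentile 97.4, 96.0, 96.9 and 97.1 in array order. The exception at the middle region was Nap1l5, at percentile 48.6 on Sham male and 86.2 to 87.6 on the other three.

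**Figure D2:**
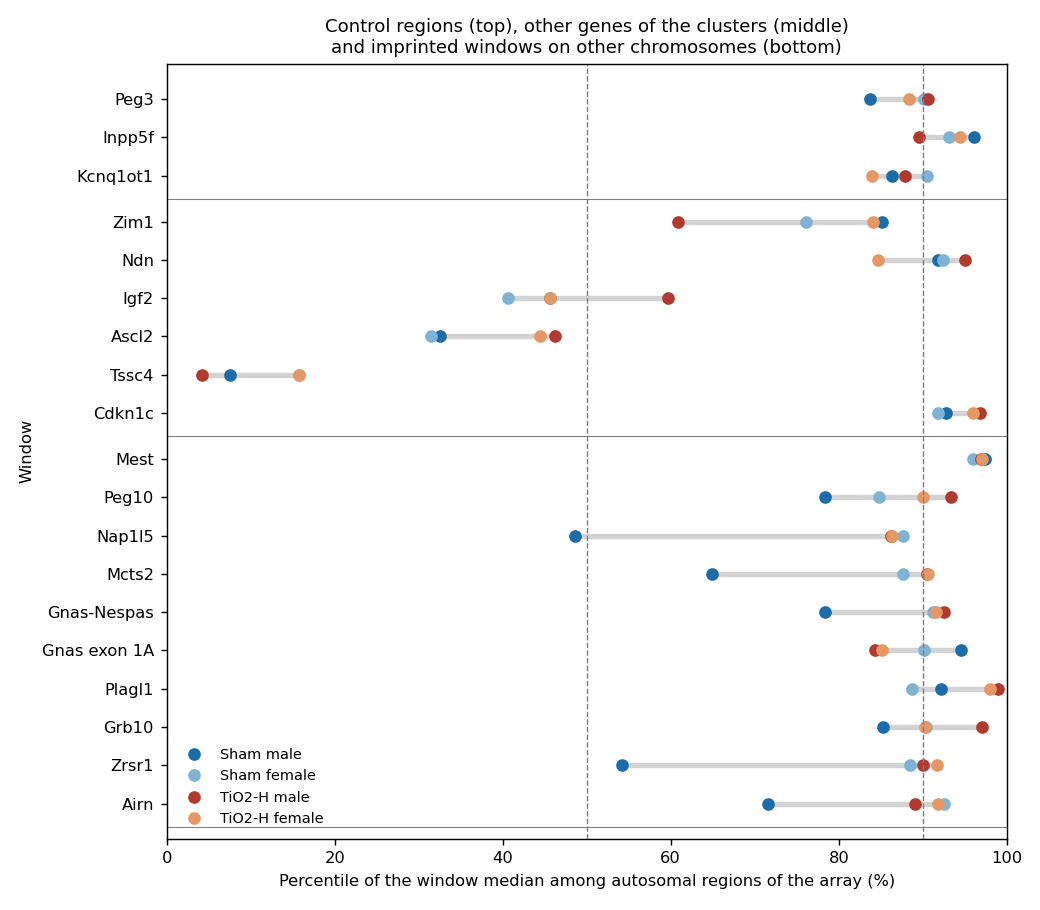
Percentile of the window median among the autosomal regions of the same array (horizontal axis, %) for each window (vertical axis), with 1 point per array and a grey bar over the range; the dashed lines are percentiles 50 and 90. The 3 control regions with probes lie between 83.7 and 96.1, while Igf2, Ascl2 and Tssc4 lie between 4.25 and 59.7.

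The surroundings of the windows were mostly lower. Within 500 kb of Inpp5f lay 8 measured regions, and 0 of them exceeded the window on any array; their highest level was 0.52, 0.24, 0.14 and 0.75 in array order. Within 500 kb of Peg3 lay 6 regions, of which 2 exceeded it on Sham male, 1 on Sham female and 0 on either TiO2-H array. Within 500 kb of Kcnq1ot1 lay 9 regions, and 2 of them exceeded it on all 4 arrays, the Cdkn1c window and an unnamed region at chr7:150623649-150624287. Around the H19 window, 10 regions had medians from -1.29 to 1.74 on Sham male. The region nearest to it, chr7:149718822-149719278, read 0.28, 0.18, -0.16 and 0.06, and stands outside the control region.

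The exposure question was whether the level at a control region differed between TiO2-H and Sham. By window medians over all probes, the TiO2-H and Sham values did not overlap in 2 of the 3 windows, where 31.1% of regions did not overlap. Peg3 was higher on both TiO2-H arrays (0.96 and 1.14 against 0.85 and 0.87), where 16.1% of regions were higher, but it was not so without centring, at a common spread, or after quantile, loess or normexp processing, and after loess both TiO2-H arrays were the lower. Inpp5f overlapped as centred and after normexp. It was lower on both TiO2-H arrays without centring, where 28.1% of regions were lower, and at a common spread, where 18.6% were. It was lower also after quantile normalization, where 17.8% of regions were lower, and after loess, where 13.0% were. These shares are over all regions and serve for Kcnq1ot1 and for Peg3 after loess as well. Kcnq1ot1 was lower on both TiO2-H arrays (0.81 and 0.88 against 0.90 and 0.98), where 15.0% of regions were lower, and it was lower also without centring, at a common spread and after quantile normalization, but not after loess or normexp.

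A probe was then compared between 2 arrays by the fold of its centred ratio. The fold limits were those of the study's methods, and the filters were adapted from them. Those methods state no centring, no Cy3 call on both arrays and no limit to autosomes, which were added here. They also do not state on which array the p-value had to pass. A probe was measured in a pair with Cy3 well above background on both arrays and Cy5 well above background on at least 1. A log ratio p-value under 0.05 on at least 1 array was needed as well. A measured probe changed at 1.5-fold or more or 0.67-fold or less. In the male comparison (TiO2-H male over Sham male) 15 of the 23 member probes were measured and 10 changed, 3 up and 7 down, which is 66.7%; the share over all measured autosomal probes was 59.2%, with 3.14% up and 56.0% down. In the female comparison (TiO2-H female over Sham female) 16 were measured and 7 changed, 7 up and 0 down, which is 43.8%. The share over all was 65.1%, with 28.8% up and 36.3% down. Leaving out probes with a dim Cy5 on 1 array of that pair, 7 of 15 member probes changed, 7 up and 0 down. Of the 21320 autosomal probes kept in the same way, 60.9% changed, and only 11.8% of those changes were falls. The direction of the female changes turned with the scaling. There were 1 up and 5 down without centring, and 0 up and 8 down at a common spread. Quantile normalization gave 1 up and 4 down, loess 1 up and 3 down, and normexp 0 up and 4 down. Over all measured autosomal probes, falls made up 55.8% of the changes as centred. Under these settings, in the same order, that share was 83.3%, 89.2%, 82.7%, 86.1% and 91.3%. The balance over all probes thus moved toward falls as well. Of 14 probes measured in both comparisons, 0 rose in both, 0 fell in both and 3 went in opposite directions. The share over all autosomal probes was not computed for these counts.

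In the male comparison the Peg3 window carried the lowest values. Over its 5 measured probes the median log2 fold was -1.23 (0.426-fold), at percentile 11.5 of 5896 measured regions, where the median of all measured autosomal probes was -0.68. The probe chr7:6682310-6682354 had a measured log2 fold of -3.21, and as its Cy5 was not well above background on TiO2-H male it was at least 7.23-fold lower there. At chr7:6682413-6682457 the log2 fold was -1.74 and at chr7:6682979-6683023 it was -1.23, while chr7:6683168-6683212 went up by 1.12. Over all 9 probes of the window, with no filter on Cy5 or the log ratio p-value, the median log2 fold was 0.09, so the window's fall held only for the probes that the filter kept. Without the dim probe, over 4 probes, it was -0.55, and under loess within arrays it was -0.17, neither of them past 0.67-fold.

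The lower Peg3 values went with 1 array. Sham male is the denominator of the male comparison and of TiO2-H female over Sham male, where the median log2 fold over 4 measured probes was -1.14 (percentile 1.57), and the pair of Sham arrays, Sham female over Sham male, gave -1.05 over 5 probes (percentile 5.20). These 3 comparisons share that array and are not independent. In the pairs without it, the median was 0.59 in the female comparison, 0.49 in the TiO2-H pair (TiO2-H female over TiO2-H male) and 0.09 for TiO2-H male over Sham female. At the Peg3 probes that the filter kept, the 2 Sham arrays thus differed by about as much as either TiO2-H array differed from Sham male. Over all 9 probes the window medians were closer, at 0.85 on Sham male, 0.87 on Sham female, 0.96 on TiO2-H male and 1.14 on TiO2-H female.

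The Inpp5f window had a median log2 fold of -0.79 (0.577-fold) over 4 measured probes in the male comparison, at percentile 40.0 of regions, close to the median of -0.68 over all probes. Its lowest probe, chr7:135831748-135831792, had a measured log2 fold of -1.85 and was at least 3.09-fold lower on TiO2-H male. With the TiO2-H arrays exchanged, TiO2-H female over Sham male, the Inpp5f window went the other way, at 0.62 over 5 probes. The male value did not pass 0.67-fold at a common spread (-0.52), after quantile normalization (-0.53), loess (-0.04) or normexp (-0.30), or over all 6 probes (-0.39). The Sham pair, Sham female over Sham male, gave -0.63 over 4 probes.

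In the female comparison both windows lay at the threshold. The median log2 fold was 0.59 (1.51-fold) over 5 Peg3 probes and 0.59 (1.50-fold) over 5 Inpp5f probes. These values stood at percentiles 83.1 and 82.96 of 7178 regions, with a median of -0.10 over all probes. That reference included probes with a dim Cy5 on 1 array of the pair, while these Peg3 and Inpp5f probes had no dim Cy5. Leaving such dim probes out moved the median over all probes to 0.64, slightly above both windows, which stayed at 0.59. Peg3 turned negative at a common spread (-0.36), after quantile normalization (-0.12), loess (-0.43) and normexp (-0.06). Inpp5f turned negative under the same 4 settings (-0.33, -0.01, -0.24 and -0.15) and with the TiO2-H arrays exchanged (-0.26). Over all probes the median was -0.45, -0.21, -0.33 and -0.47 under those 4 settings, and -0.49 with the arrays exchanged. The largest rises were 1.31 at chr7:6682310-6682354 in Peg3 and 0.98 at chr7:135831942-135831986 in Inpp5f.

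The Kcnq1ot1 window did not pass either fold limit in the male or the female comparison. Its median log2 fold was -0.12 (0.923-fold) over 6 measured probes in the male comparison and -0.16 (0.898-fold) over 6 in the female comparison. With the TiO2-H arrays exchanged it was 0.43 for TiO2-H female over Sham male, at percentile 94.4 of regions, and -0.45 for TiO2-H male over Sham female, at percentile 56.0. Since 1 of the 6 male values was only a bound, its male direction was not fixed. Within the window the male values ran from -0.92 at chr7:150482193-150482237 to 1.30 at chr7:150481545-150481589, the probe with the flagged background. The female values ran from -0.44 to 0.87, and the female window value passed 0.67-fold without centring (-0.66), at a common spread (-0.82) and after quantile normalization (-0.67).

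**Figure D3:**
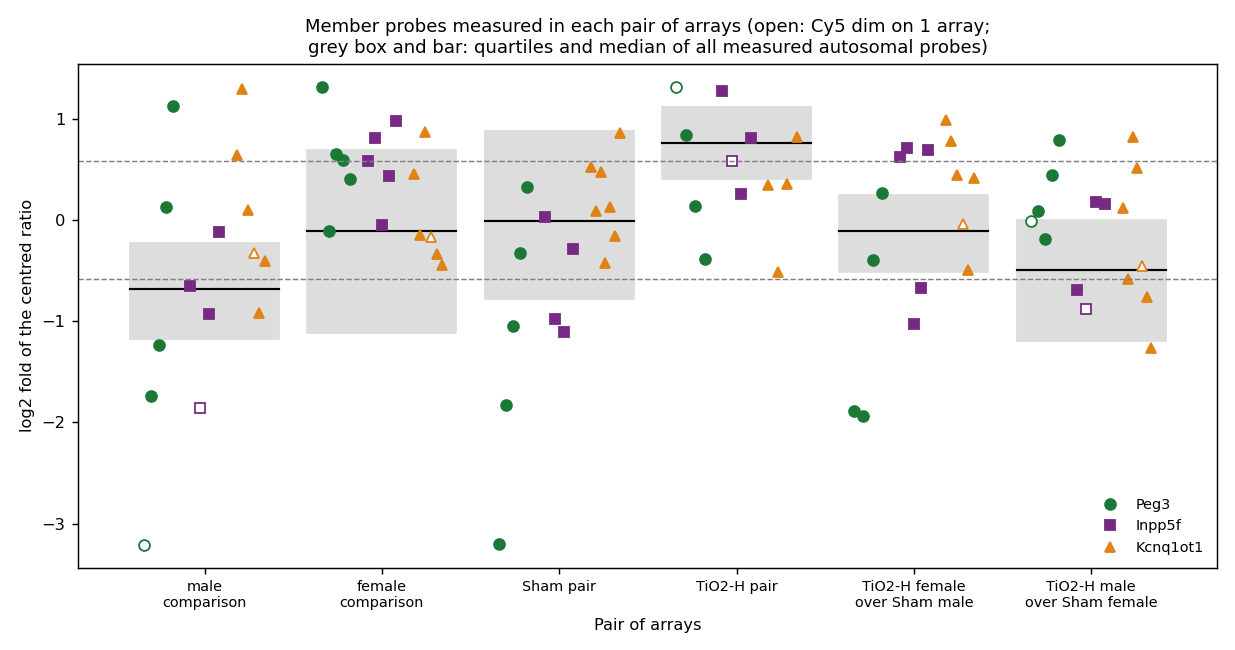
log2 fold of the centred ratio (vertical axis) of each member probe measured in a pair of arrays (horizontal axis; the Sham and TiO2-H pairs are female over male), by window. Open points had a dim Cy5, below that call, on 1 array of the pair, grey boxes and black bars are the quartiles and the median of all measured autosomal probes, dashed lines mark 1.5-fold and 0.67-fold, and the lowest Peg3 points are in the 3 pairs that contain Sham male.

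Exchanging the TiO2-H arrays gave other counts. For TiO2-H female over Sham male, 9 of 15 measured member probes changed, 5 up and 4 down, against 32.4% of all measured autosomal probes, with 10.3% up and 22.1% down. For TiO2-H male over Sham female, 7 of 16 changed, 2 up and 5 down, against 49.6%, with 3.36% up and 46.2% down. In the Sham pair 6 of 16 changed, 1 up and 5 down, against 65.0% of all, with 32.0% up and 33.0% down. In the TiO2-H pair 5 of 12 changed, 5 up and 0 down, against 64.7% of all, with 63.7% up and 1.02% down. Arrays that share an exposure thus differed at member probes too.

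The single test that the design allows took both TiO2-H arrays against both Sham arrays with limma, over 39861 autosomal probes and with Benjamini-Hochberg adjustment. Of the 18 member probes tested, 8 were higher and 10 lower on the TiO2-H arrays, and 0 were called, where 0.0928% of all probes tested were. At an unadjusted p under 0.05 the member count was also 0, where 5.45% of all were. The lowest member p was 0.115, at chr7:135831748-135831792 in Inpp5f, with a log2 difference of -0.95 (SE 0.57) and an adjusted p of 1 by limma. At chr7:6682310-6682354 in Peg3 the log2 difference was -0.95 (SE 0.81), the largest standard error of the 18. Without the Sham female array the log2 difference at this same Peg3 probe was -2.55, with Sham male then the only Sham array. The median over all probes tested was -0.31 in that fit. That fit takes its spread from the 2 TiO2-H arrays and from limma's moderation over probes, and assumes that the lone Sham array varies like them. The largest positive difference was 0.80 (SE 0.54) at chr7:150481545-150481589 in Kcnq1ot1. The median difference over the 18 member probes was -0.14, and over all probes tested it was -0.13.

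**Figure D4:**
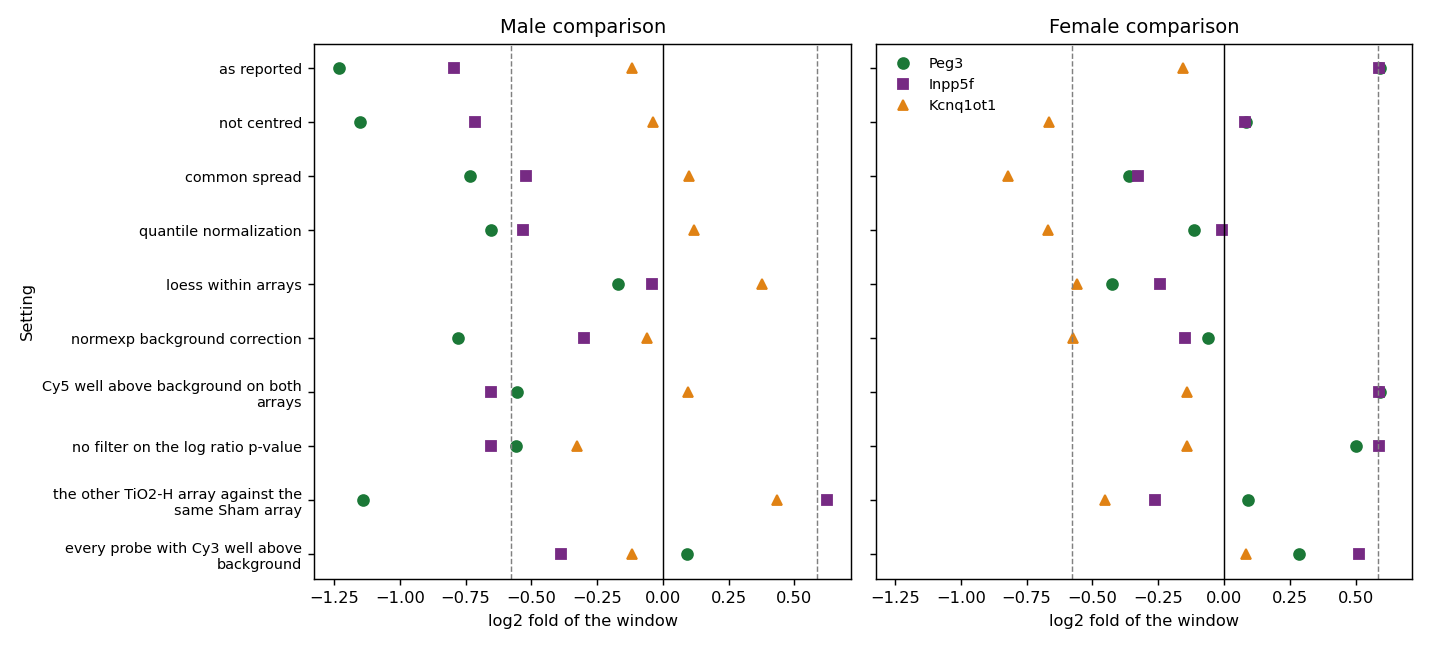
Median log2 fold of each window (horizontal axis) under each way of processing (vertical axis), for the male comparison (left) and the female comparison (right). Dashed lines mark 1.5-fold and 0.67-fold and the solid line no change; Peg3 in the male comparison runs from -1.23 to 0.09, and the female values of Peg3 and Inpp5f lie on both sides of 0.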

How the data were processed

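Genomic DNA was measured on 4 arrays with 2 colours, 1 per group. Per the file headers, the authors used Agilent Feature Extraction 10.7.3.1 to read them, and the processed intensity values they deposited were background-subtracted and dye-normalized by the scanner software. Deposited log ratios are log10 values of Cy5 over Cy3, with a p-value from the software's error model, and the series table held the same log10 values. Direction follows the labels (Cy5 MeDIP, Cy3 input). Positions are mm9, from the scanner files.

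Control spots and 12 probes with an outlier flag were left out, and 85850 autosomal probes remained as reference. Ratios were taken as log2 and centred per array with Python 3.11.15 and pandas 2.3.3; limma 3.58.1 under R 4.3.3 fitted 2 TiO2-H against 2 Sham arrays. limma was tested on simulated data. Its p-values measure only the spread between the 2 pools of an exposure, with limma's moderation over probes. Those pools also differ in labelled sex and slide. For a dim Cy5, a fold was bounded by raising it to the lowest Cy5 well above background on that array. The members, the lists of other imprinted genes and the windows were chosen with earlier results of these data known. Named were all 5 windows, and in each the probe of highest and of lowest mean. Named also were 6 other genes of the clusters and 10 imprinted windows elsewhere. Any probe changed alike in both exposure comparisons was to be named. Within the labelled sex there was none, and with the TiO2-H arrays exchanged 1 rose and 1 fell in both. Other probes were named after their values were seen. Gene names come from the position of each window. Alternatives were scaling, background, filters, other regions, left-out arrays and a block of labelled sex; normexp used the median spot signal with an offset of 50. The number of arrays limits the precision.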

Additional observations from a re-analysis of the deposited data

Results flagged for a closer look

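Some effects ran in opposite directions in the 2 exposure comparisons; with 1 array per group these differences were not tested. The Peg3 window had a log2 fold of -1.23 (male comparison) and 0.59 (female comparison), and the Inpp5f window -0.79 and 0.59. Among single probes, chr7:6682310-6682354 in Peg3 had -3.21 and 1.31, chr7:6682979-6683023 in Peg3 -1.23 and 0.66, and chr7:135831552-135831596 in Inpp5f -0.65 and 0.59. The median of all measured autosomal probes was itself -0.68 and -0.10. Leaving out probes with a dim Cy5 on 1 array of the pair made that median -0.71 and 0.64. At the first Peg3 probe the 4 levels were 4.15 on Sham male, 0.95 on Sham female, 0.94 on TiO2-H male and 2.26 on TiO2-H female, and the part of the Sham male array in this contrast was not tested.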

How the results depend on the processing

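The count of changed member probes in the male comparison was 10, and 6 after loess within arrays (3 up and 3 down) and 4 after normexp (0 up and 4 down). In the female comparison the member count was 7 of 16, all up, where 65.1% of all measured probes changed. It was 4 after loess (1 up and 3 down), where 39.0% did, and 4 after normexp (0 up and 4 down), where 47.1% did. Of the female changes over all measured probes, 55.8% were falls as centred, 86.1% under loess and 91.3% under normexp. The cause was not tested. The count of windows above percentile 90 on all 4 arrays was 0. It was 1 with reference regions of at least 5 probes, with the series table without its zeros, or on background-subtracted Cy5 alone. Under these settings, in that order, 4.92%, 5.08% and 4.96% of regions were above it. The limma fits that each left out 1 array had a group of 1 array, so no count is given for them. With labelled sex, which is also the slide, as a replicate block the limma count of member probes was 0. Over all probes that fit gave 70, against 37 without the block. Common spread gave 492 and quantile normalization 228 over all probes, and no centring, loess and normexp gave 0. The male Peg3 window went from -1.23 to 0.093 when every probe with Cy3 well above background was used, and the male Inpp5f window from -0.79 to 0.62 with the other TiO2-H array. The female Peg3 window went from 0.59 to -0.36 (common spread), -0.12 (quantile), -0.43 (loess) and -0.061 (normexp). The female Inpp5f window went from 0.59 to -0.33, -0.0063, -0.24 and -0.15 under the same settings and to -0.26 with the other TiO2-H array. Of the other window folds, 26 kept their side of the limits, of which 20 kept their sign and 6, all of Kcnq1ot1 and within the limits, did not; 14 no longer passed a limit and 3 newly did. The median of all measured probes moved with the scaling, from -0.68 to -0.07 (normexp) in the male and from -0.10 to -0.61 (not centred) in the female comparison. The use of Cy5 alone, of probes with Cy5 well above background alone and of every probe with Cy3 well above background was chosen after seeing the data.

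These data are 4 pools on 4 arrays, with sex labels that the X-linked input goes against on 2 of them. Labelled sex is the slide and exposure the position on it. Dim Cy5 limits 26 of the 92 member values. Array ratios give neither a percentage of methylation nor the parental copy. Snrpn and H19 were not analysed here.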
